A study of Mus musculus with 6 samples.

Results

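Insulin-like growth factors (IGFs) and the proteins that bind them were examined in whole liver by polyA RNA sequencing. The 10 genes were taken by symbol from the table of 21956 genes: Igfbp1 to Igfbp7, Igf1, Igfals and Igf1r, each present once, and 9 of the 10 had enough counts to be tested. The KO group held 3 mice of genotype Stingfl/fl Cdh5-Cre+, in which both alleles of the innate immune adaptor Sting1 are floxed and Cre is driven by the promoter of Cdh5, the endothelial cadherin. The NC group held 3 Stingfl/fl Cdh5-Cre- littermates with the same floxed alleles and no Cre. Mice of both groups were on normal chow up to 8 weeks of age. Both groups then spent 10 weeks on CDAHFD, a choline-deficient and high-fat diet with L-amino acid-defined protein that produces steatohepatitis. No group left on normal chow enters a comparison. Cre was present in KO mice only, so the deletion and the presence of the recombinase cannot be told apart.

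IGF1 is a growth hormone-dependent hormone made mostly by hepatocytes. It acts through the receptor tyrosine kinase IGF1R. In blood nearly all of it is carried by the IGF-binding proteins, and a complex of IGF1, IGFBP3 or IGFBP5 and the acid-labile subunit (Igfals) forms the long-lived store. IGFBP1 is the short-term member of the family: hepatocytes secrete it, and insulin represses its gene through the FoxO1 transcription factor. Proteases such as pappalysin-1 (Pappa) free IGFs from their binding proteins in tissue.

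Sting1, which checks the genotype, had 106, 114 and 80 counts in the KO libraries and 240, 365 and 226 in the NC libraries. Its log2 fold change was -1.29 (SE, standard error, 0.23), with an adjusted p of 0.357 in edgeR and 0.00197 in DESeq2. Which exons Cre removes is not stated in the labels, and Sting1 was not measured by cell type. Library totals lay between 16704663 and 21025466 counts. The labels name liver as the tissue and sinusoidal endothelial cells as the cell type. Albumin took 9.60% to 10.9% of counts in KO and 6.91% to 9.61% in NC libraries, the level of whole liver. NC replicate 2 stood apart, with a scaling factor of 1.26 against 0.922 to 1.01 in the others. Fewer cells of a type and less RNA per cell cannot be told apart in such samples.

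The 10 transcripts spanned more than 3 orders of magnitude in TPM (a relative transcript level corrected for gene length). In KO livers the order of mean TPM was Igfbp2, Igfbp4, Igf1, Igfbp7, Igfbp1, Igfals, Igfbp3, Igfbp5, Igf1r and Igfbp6. In NC livers it was Igfbp2, Igfbp4, Igfbp1, Igfbp7, Igf1, Igfbp3, Igfals, Igfbp5, Igf1r and Igfbp6. Igfbp1 thus held the fifth place in KO and the third in NC livers. In KO livers the library ranges of neighbours in this order overlapped for Igfals and Igfbp3 and for Igfbp5 and Igf1r, and were separate for the other 7 neighbouring pairs. In NC livers the ranges overlapped between each neighbour from Igfbp4 to Igf1, between Igfbp3 and Igfals, and between Igfbp5 and Igf1r.

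**Figure D1:**
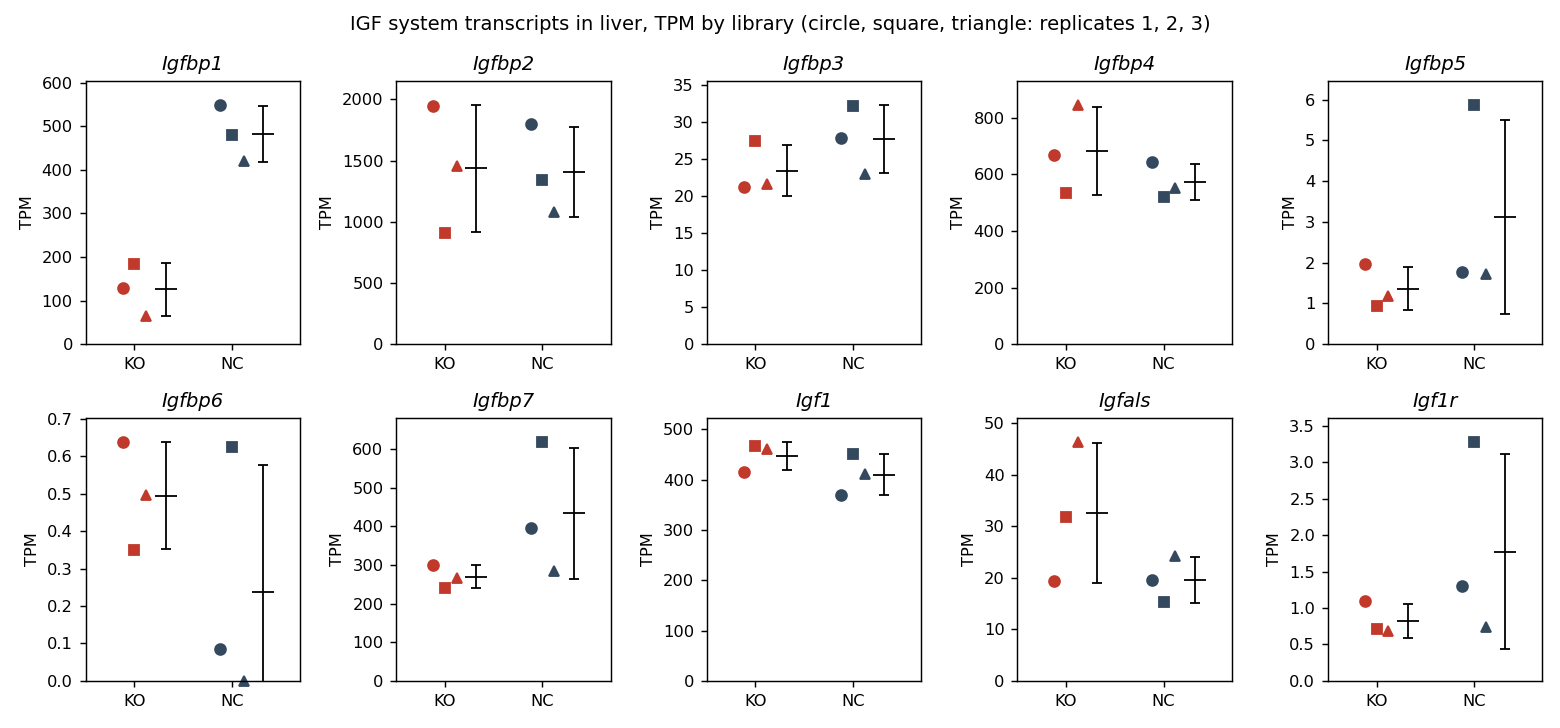
Level of each of the 10 transcripts in TPM (linear axes from 0) in the 3 KO libraries, left, and the 3 NC libraries, right. Bars give mean and SD; in Igfbp1 the KO libraries at 64.3 to 185 TPM lie below the NC libraries at 419 to 549 TPM, and in the other panels the groups overlap.

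Igfbp1, the insulin-repressed binding protein secreted by hepatocytes, was the one member whose groups did not overlap, and it was lower in KO livers. It stood at 128, 185 and 64.3 TPM in KO livers, against 549, 479 and 419 TPM in NC livers. The highest KO library lay well below the lowest NC library, with KO replicate 3 lowest and NC replicate 1 highest. The means were 126 ± 60.3 TPM in KO and 482 ± 64.9 TPM in NC livers (SD, n = 3 each). The counts behind these levels were 2206, 2893 and 1063 in KO and 8998, 6295 and 7436 in NC libraries, so that counting error was small beside the spread between mice.

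The log2 fold change of Igfbp1 was -1.71 (SE 0.35), a 3.27-fold lower level in KO livers. The unadjusted p was 0.00113 in edgeR's quasi-likelihood test. After Benjamini-Hochberg adjustment over the 13197 genes tested the adjusted p was 0.357, which did not pass 0.05, and 0% of all genes passed, while 1419 genes had an unadjusted p under 0.05. DESeq2 gave a log2 fold change of -1.70 and an adjusted p of 0.000264, which passed; it called 0.923% of the genes for which it gave an adjusted p, and 0.625% as lower. Igfbp1 was the 1 member it called. In the two-sided exact permutation test the p was 0.1, the smallest that 3 against 3 allows. By unadjusted p, Igfbp1 ranked 27 among all genes with a lower level in KO livers. Leaving out 1 library at a time moved the log2 fold change between -2.08 and -1.39, and without NC replicate 2 it was -1.84. Non-overlap with KO lower was seen for 9.14% of all genes tested, and with KO higher for 7.25%, 16.4% in all. Of the 9 tested members 1 was in that state and 0 were higher without overlap, which is near the background share.

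Igfbp1 (ENSMUSG00000020429) lies on GRCm38 chromosome 11 from 7197782 to 7202546 on the plus strand. Its promoter is shown because the insulin response of this gene has been mapped to it in mammals, to a pair of inverted FoxO-binding repeats. For comparison the promoters of Igfals, the member with the smallest p among those higher in KO livers, and of Igfbp3, the nearest neighbour of Igfbp1, are given as well. Each runs 5′ to 3′ on the gene's strand from 250 bases before to 50 bases after a RefSeq transcription start on GRCm38.p6, and capitals mark the bases of any motif searched.

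Igfbp1, chr11:7197537-7197836, plus strand: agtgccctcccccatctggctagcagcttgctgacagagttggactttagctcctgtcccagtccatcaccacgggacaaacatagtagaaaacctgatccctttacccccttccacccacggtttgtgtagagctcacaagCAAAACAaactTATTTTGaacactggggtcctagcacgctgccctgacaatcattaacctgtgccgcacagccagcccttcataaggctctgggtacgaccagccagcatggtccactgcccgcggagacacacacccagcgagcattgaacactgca

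Igfals, the second of 3 start sites, chr17:24877981-24878280, plus strand: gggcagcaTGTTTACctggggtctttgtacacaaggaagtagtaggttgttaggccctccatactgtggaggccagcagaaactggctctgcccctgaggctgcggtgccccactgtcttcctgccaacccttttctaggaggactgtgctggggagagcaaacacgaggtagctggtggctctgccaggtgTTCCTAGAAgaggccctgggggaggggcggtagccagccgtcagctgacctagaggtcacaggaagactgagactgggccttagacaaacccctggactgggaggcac

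Igfbp3, chr11:7213874-7214173, minus strand: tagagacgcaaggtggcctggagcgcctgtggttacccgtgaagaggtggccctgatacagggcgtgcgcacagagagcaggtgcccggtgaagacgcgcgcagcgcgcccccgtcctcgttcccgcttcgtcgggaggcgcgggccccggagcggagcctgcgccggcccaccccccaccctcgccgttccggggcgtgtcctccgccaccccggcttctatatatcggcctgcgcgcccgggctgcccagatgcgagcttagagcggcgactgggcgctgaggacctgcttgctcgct

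The 5 motifs searched on both strands were the FoxO core GTAAACA, the insulin response half-sites CAAAACA and CAAAATA, the STAT5 consensus TTCNNNGAA and the E-box CACGTG. The Igfbp1 window held CAAAACA on the forward strand starting at position -108 from the start site, and CAAAATA on the reverse strand, read as TATTTTG, starting at position -97. Of 32851 promoter windows of the same length, 6.28% held CAAAACA and 4.36% held CAAAATA. The printed Igfals window held GTAAACA on the reverse strand and 1 TTCNNNGAA, and 3.65% and 8.30% of all windows held these. The first Igfals window held a TTCNNNGAA too, and the third held none of the 5. Igfbp2 held a CACGTG, which 7.15% of all windows held, and no motif of the 5 was found in the windows of the other 7 members. A match of letters is not a measured binding site, and no binding was measured in these livers.

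Igfbp1 and Igfbp3 face each other on chromosome 11, with no annotated gene in the 3539 bases between their ends. Igfbp3 (ENSMUSG00000020427, minus strand, 7206086 to 7213923), the main IGF carrier of adult serum, differed by less than the spread between mice. It had 21.3, 27.4 and 21.6 TPM in KO livers, against 27.9, 32.2 and 23.0 TPM in NC livers. The ranges overlapped. Its log2 fold change was 0.0049 (SE 0.14; adjusted p = 0.995 in edgeR with Benjamini-Hochberg adjustment). The sign turned with the scaling, to -0.21 with library totals only, where the median of all genes stood at -0.21 as well. The difference between the neighbours Igfbp1 and Igfbp3 was not tested.

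Igfals (ENSMUSG00000046070, chromosome 17, 24865997 to 24882010, plus strand) encodes the acid-labile subunit, which hepatocytes make under growth hormone and which holds IGF1 and IGFBP3 in the circulating store. It was higher on average in KO livers, with overlapping groups, and did not pass the test. It stood at 19.3, 31.8 and 46.4 TPM in KO livers, against 19.6, 15.2 and 24.2 TPM in NC livers. KO replicate 3 was highest, and KO replicate 1 lay inside the NC range. The log2 fold change was 0.92 (SE 0.37), with an unadjusted p of 0.0369 and an adjusted p of 0.438 in edgeR. At an unadjusted p under 0.05, 3.75% of all genes were higher and 7.00% lower in KO livers. Among the 9 tested members 1 was higher at that level, Igfals, and 1 was lower, Igfbp1. Without KO replicate 3 the log2 fold change of Igfals was 0.57.

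Igf1 (ENSMUSG00000020053, chromosome 10, 87858265 to 87937042, plus strand) itself differed little. It had 415, 466 and 461 TPM in KO livers, against 369, 450.1 and 410.3 TPM in NC livers. The groups overlapped, with KO replicates 2 and 3 highest and NC replicate 1 lowest. The log2 fold change from counts was 0.13 (SE 0.18; adjusted p = 0.811 in edgeR with Benjamini-Hochberg adjustment), and it was -0.07 with library totals only, or 0.14 relative to the median of all genes there. Without NC replicate 2 it was 0.01. Counts and TPM of Igf1 did not move together across libraries. Counts per TPM, set against the median gene of the library and against the gene's own mean over libraries, were 0.888, 0.939 and 0.935 in KO and 1.23, 1.00 and 1.04 in NC livers. These values did not overlap between the groups, and the share of all genes with such a separation was not computed. Among 9096 genes with at least 100 counts in every library, 4.94% had a ratio of highest to lowest at least as wide as that of Igf1, and the median gene had 1.03. By the definition of TPM, counts per TPM move with the length assigned to the gene in each library. Levels of single Igf1 transcripts were not analysed here. The antisense gene Igf1os overlaps Igf1, and the sources used here do not give whether strand entered the counting.

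Igf1r (ENSMUSG00000005533, chromosome 7, 67952827 to 68233668, plus strand), the receptor, was near the bottom of the order. It had 141, 83 and 84 counts in KO and 159, 323 and 99 counts in NC libraries, or 0.828 ± 0.233 TPM in KO and 1.78 ± 1.34 TPM in NC livers (SD, n = 3 each). NC replicate 2 was highest and the other 5 libraries overlapped between the groups. The log2 fold change was -0.74 (SE 0.41; adjusted p = 0.545 in edgeR with Benjamini-Hochberg adjustment), and -0.18 without NC replicate 2.

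Igfbp2, secreted by hepatocytes and highest of the 10, and Igfbp4, an inhibitor of IGF action that pappalysin-1 cleaves, did not differ beyond their spread. Igfbp2 stood at 1945, 908 and 1457 TPM in KO livers, against 1803, 1339 and 1079 TPM in NC livers. The lowest and the highest of the 6 libraries were both KO livers. For Igfbp2 the log2 fold change was 0.26 (SE 0.33; adjusted p = 0.793 in edgeR with Benjamini-Hochberg adjustment), and it turned to -0.02 without KO replicate 1 and to -0.006 on log2(TPM + 1). Igfbp4 stood at 668, 534 and 844 TPM in KO livers, against 644, 521 and 553 TPM in NC livers. KO replicate 3 was highest, and KO replicate 2 lay inside the NC range. For Igfbp4 it was 0.47 (SE 0.25; adjusted p = 0.530 in edgeR with Benjamini-Hochberg adjustment), with 0.31 without NC replicate 2 and 0.23 on log2(TPM + 1). Igfbp4 (ENSMUSG00000017493) lies on chromosome 11 from 99041244 to 99054392, plus strand. Igfbp2 (ENSMUSG00000039323, 72824503 to 72852474, plus strand) and Igfbp5 (ENSMUSG00000026185, 72857932 to 72874884, minus strand) are convergent neighbours on chromosome 1, with 5457 bases between their ends.

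Igfbp7, a low-affinity binding protein found in vascular basement membranes, and Igfbp5, a binding protein of fibroblastic cells, were lower on average in KO livers, and neither passed. Igfbp7 stood at 301, 241 and 266 TPM in KO livers, against 397, 619 and 285 TPM in NC livers. The ranges overlapped between KO replicate 1 and NC replicate 3, and NC replicate 2 was highest. Its log2 fold change was -0.39 (SE 0.20; adjusted p = 0.513 in edgeR with Benjamini-Hochberg adjustment). It was -0.23 without NC replicate 2, and -0.64 with library totals only, or -0.43 relative to the median of all genes. Polr2b, a protein-coding gene, and the antisense gene Gm34648 overlap Igfbp7 (ENSMUSG00000036256, chromosome 5, 77349240 to 77408041, minus strand) on the other strand. Igfbp5 had 133, 58 and 77 counts in KO and 115, 304 and 121 counts in NC libraries. NC replicate 2 again was highest, and KO replicate 1 lay above the other NC replicates. The log2 fold change of Igfbp5 was -0.84 (SE 0.42; adjusted p = 0.513 in edgeR with Benjamini-Hochberg adjustment), and -0.25 without NC replicate 2.

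Igfbp7, Igfbp5 and Igf1r were the 3 members for which NC replicate 2 held the highest CPM (counts relative to the TMM-scaled library size). It held the lowest CPM for 3 others, Igfbp4, Igf1 and Igfals. The summed TPM of some marker lists was also highest or lowest in NC replicate 2, and that of others was not. Of 13 stellate cell and myofibroblast markers 11 had log2 fold changes below 0, and their summed TPM ran from 765 to 944 in KO and from 910.0 to 1757 in NC livers, highest in NC replicate 2. Of 9 tested cholangiocyte markers 9 were below 0, and the sum over all 10 ran from 296 to 658 TPM in KO and from 643 to 2155 TPM in NC livers, again highest in NC replicate 2. Most of this sum was 1 gene, Spp1. In TMM-scaled CPM Spp1 ran from 231 to 516 in KO and from 483 to 1154 in NC livers. The whole list ran from 260 to 590 CPM in KO and from 543 to 1312 CPM in NC livers. Of 9 sinusoidal endothelial markers 8 were above 0, with sums of 346 to 356 TPM in KO and 289.9 to 347 TPM in NC livers. Of 10 hepatocyte markers 9 were above 0, with sums of 130029 to 150473 TPM in KO and 105900 to 131041 TPM in NC livers, lowest in NC replicate 2. Of 9 Kupffer cell markers 9 were above 0, with sums of 1108 to 1490 TPM in KO and 853 to 1474 TPM in NC livers. Of 8 proliferation markers 8 were below 0, with sums of 22.2 to 31.4 TPM in KO and 44.1 to 134.7 TPM in NC livers, which did not overlap. In TMM-scaled CPM, the scale of the fold changes, the sums of 4 of 12 marker lists were higher in KO livers without overlap. Hepatocyte markers summed to 138580 to 161428 CPM in KO and 79592 to 134583 CPM in NC livers, and sinusoidal endothelial markers to 578 to 626 CPM in KO and 460.2 to 536 CPM in NC livers. Kupffer cell markers summed to 1124 to 1456 CPM in KO and 755 to 1093 CPM in NC livers, and T and NK cell markers to 16.7 to 29.1 CPM in KO and 11.6 to 14.0 CPM in NC livers. On library totals the sums of all 4 lists overlapped between the groups. Hepatocyte markers then ran from 130365 to 149707 CPM in KO and from 100046 to 131184 CPM in NC livers. In TPM all 4 overlapped as well, with T and NK cell markers at 21.6 to 33.6 in KO and 15.2 to 23.6 in NC livers. No marker of these lists was at 0 in all libraries. The part of these cell types in the members' values was not tested.

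Igfbp6 (ENSMUSG00000023046, chromosome 15, 102144362 to 102149511, plus strand), which binds IGF2 in preference to IGF1, was too low to test. It had 8, 4 and 6 counts in KO and 1, 6 and 0 counts in NC libraries. The sums were 18 counts in KO and 7 counts in NC libraries, and the groups overlapped. The 0 in NC replicate 3 allows up to 3 counts, or 0.143 CPM on its library total, for counting error only.

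Over the 9 tested members 4 log2 fold changes lay below 0 and 5 above, with a median of 0.0049 against 0.0083 for all genes tested. Of all genes 48.8% lay below 0.

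**Figure D2:**
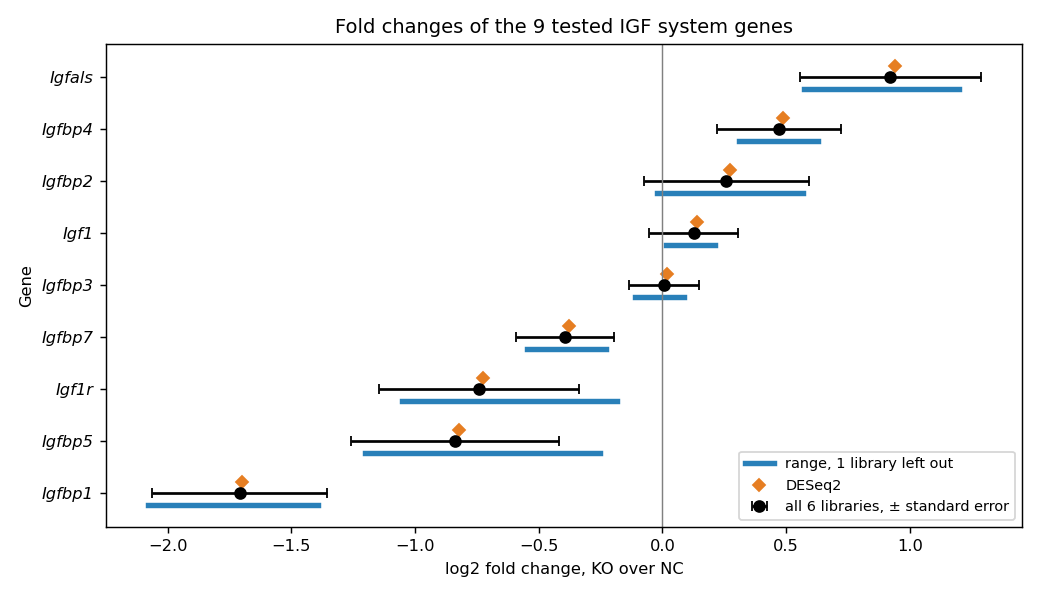
Log2 fold change, KO over NC, of the 9 tested members. Points with bars give edgeR's estimate and its standard error, blue lines the range when 1 library is left out, and diamonds DESeq2; Igfbp1 runs from -2.08 to -1.39 over the libraries left out, and Igfbp2 and Igfbp3 cross 0.

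The share of Igfbp1 in the binding protein transcripts differed in the same way as its level. It made up 4.19%, 9.74% and 2.42% of the summed TPM of Igfbp1 to Igfbp7 in KO livers, against 16.0%, 16.0% and 17.7% in NC livers. The highest KO share was below the lowest NC share. The sum itself was 3066, 1897 and 2655 TPM in KO and 3421, 2997 and 2361 TPM in NC livers, with overlap. Without Igfbp1 the sum averaged 2414 ± 631 TPM in KO and 2444 ± 470 TPM in NC livers (SD, n = 3 each), a difference well inside the spread. Igfbp2 made up 55.4% ± 7.80 of the total in KO and 47.7% ± 4.35 in NC livers, and Igfbp4 27.2% ± 5.06 in KO and 19.9% ± 3.15 in NC livers (SD, n = 3 each). Igfbp3, Igfbp5 and Igfbp6 together gave only a thin band in each library. There were 0.309, 0.397 and 0.140 Igfbp1 transcripts per Igf1 transcript in KO livers, against 1.49, 1.06 and 1.02 in NC livers, as ratios of TPM. These shares and ratios use the same Igfbp1 values as above and are descriptions, with no test of their own.

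**Figure D3:**
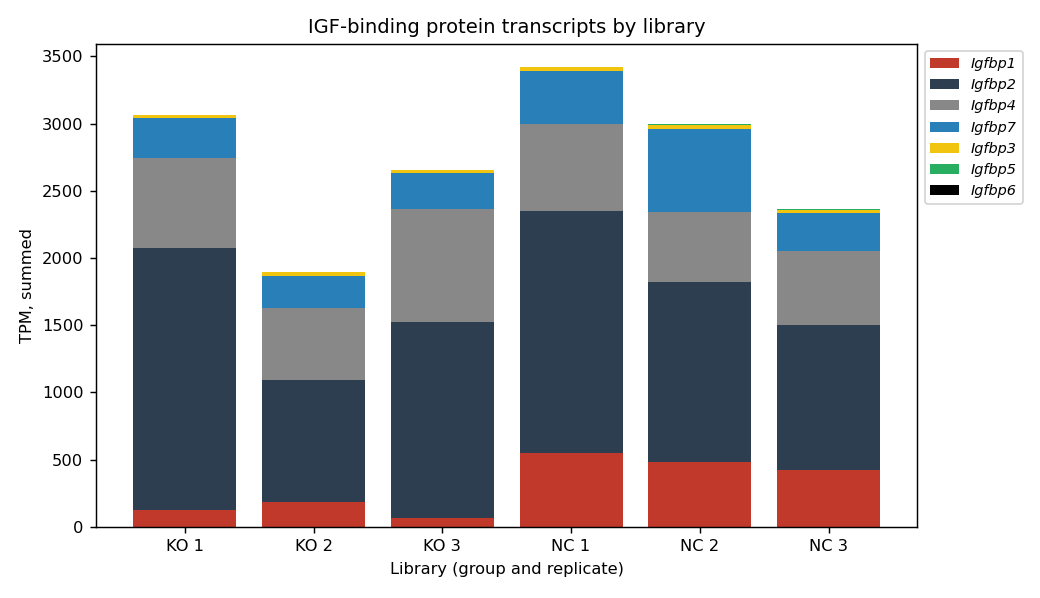
Stacked TPM of the 7 binding protein genes in each library, KO libraries left and NC libraries right. Igfbp1, at the bottom in red, is 2.42% to 9.74% of the bar in KO and 16.0% to 17.7% in NC libraries, while total bar heights overlap.

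The other genes of the system were read from 8 lists, over which no adjusted p in edgeR was under 0.05. The ligand and receptor genes outside the 10 were close to even. Igf2r, which clears IGF2, stood at 92.4 ± 3.86 CPM in KO and 88.1 ± 3.18 CPM in NC livers (SD, n = 3 each). Insr, the insulin receptor, stood at 124 ± 8.35 CPM in KO and 118 ± 11.5 CPM in NC livers. Igf2 was near the detection limit, with 29, 12 and 6 counts in KO and 26, 18 and 17 counts in NC libraries. Insrr and Igfbpl1 were too low to test.

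Of 7 tested genes for IGFBP proteases and protease inhibitors all 7 had log2 fold changes below 0, with a median of -1.04. When KO replicate 2, KO replicate 3 or NC replicate 1 was left out, 1 of the 7 lay above 0. At an unadjusted p under 0.05, 2 of the 7 were lower and 0 higher, against 7.00% and 3.75% of all genes. Htra1, a secreted serine protease that cleaves binding proteins, stood at 4.43 ± 0.536 CPM in KO and 9.13 ± 3.82 CPM in NC livers (SD, n = 3 each; log2 fold change -1.04). Stc2, a stanniocalcin that inhibits pappalysins, stood at 0.601 ± 0.229 CPM in KO and 1.53 ± 0.319 CPM in NC livers (log2 fold change -1.34). Adam12 stood at 1.62 ± 0.166 CPM in KO and 3.01 ± 1.58 CPM in NC livers (log2 fold change -0.89), with an unadjusted p of 0.0558 in edgeR. Htra1, Stc2 and Adam12 had groups that did not overlap, a state seen with KO lower for 9.14% of all genes tested. For Adam12 the gap was narrow, with KO replicate 3 at 1.76 CPM and NC replicate 3 at 1.85 CPM. Without NC replicate 2, the library with the highest stellate and cholangiocyte marker sums, the median of the list was -0.38, and on log2(TPM + 1) it was -0.39. The count lower at an unadjusted p under 0.05 was 1 without KO replicate 2 or NC replicate 2, 3 without KO replicate 1 and 4 without NC replicate 3.

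Signalling genes downstream of IGF1R and the insulin receptor were balanced, with 14 of 28 above and 14 below 0 and a median of -0.0046. The split follows the scaling: with library totals only 1 was above and 27 below 0, where the median relative to all genes was -0.018. In signalling genes the count lower at an unadjusted p under 0.05 was 2 without KO replicate 1, KO replicate 2, KO replicate 3 or NC replicate 2. It was 6 with library totals only. With all libraries and TMM scaling Grb10, an adaptor that inhibits both receptors, was the 1 gene of 28 at that level, against 7.00% of all genes lower. It stood at 11.0 ± 0.551 CPM in KO and 18.9 ± 6.25 CPM in NC livers (SD, n = 3 each; adjusted p = 0.380 in edgeR with Benjamini-Hochberg adjustment). Of 10 growth hormone axis genes 8 lay above 0, with a median of 0.18, which was -0.05 with library totals only and 0.16 relative to all genes there. Without KO replicate 2 only 5 of the 10 lay above 0 and the median was 0.09, and without KO replicate 1 it was 0.28. In limma-voom 6 lay above 0, with a median of 0.08, and with the replicate block 6, with a median of 0.07. Socs2, a growth hormone-induced inhibitor of its receptor, had 7.92, 6.71 and 20.7 CPM in KO livers, against 22.2, 20.8 and 29.5 CPM in NC livers. KO replicate 3 nearly touched NC replicate 2, and the log2 fold change was -1.03 with an unadjusted p of 0.0357. Jak2, the kinase bound to the growth hormone receptor, was lower too, at -0.48, and Socs3 was higher at 0.46. At an unadjusted p under 0.05 in edgeR, 2 of the 10 were lower and 1 higher, against 7.00% and 3.75% of all genes. The lower count was 1 without KO replicate 1, NC replicate 1 or NC replicate 3, and 0 without NC replicate 2. The 1 higher gene was Socs3, with overlapping groups and an unadjusted p of 0.04998 in edgeR. The higher count was 0 without KO replicate 1, KO replicate 3, NC replicate 1 or NC replicate 2.

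Igfbp1 was next set beside hepatocyte genes that insulin is known to repress or induce. Of 11 insulin-repressed FoxO1 targets 8 lay below 0 and 3 above, with a median of -0.15. The median was -0.07 without KO replicate 1, -0.25 without KO replicate 3, -0.26 without NC replicate 2 and -0.02 without NC replicate 3. With library totals only it was -0.35, or -0.14 relative to all genes. At an unadjusted p under 0.05, 3 were lower and 1 was higher, against 7.00% and 3.75% of all genes. Between 1 gene, without NC replicate 1, and 5 genes, without NC replicate 2, were lower at that level when 1 library was left out. Pdk4, which limits pyruvate oxidation in fasting, had 34.5, 24.3 and 15.6 CPM in KO livers, against 59.6, 47.3 and 45.9 CPM in NC livers. The groups did not overlap. The estimated log2 fold change was -1.04 (SE 0.26); the adjusted p was 0.367 in edgeR and 0.0319 in DESeq2. Ppargc1a, a coactivator of gluconeogenesis, had a log2 fold change of -0.79, and G6pc, glucose-6-phosphatase, one of -0.62 with overlapping groups. Trib1, a pseudokinase, went the other way at 0.39, and its groups did not overlap either. It had 60.4, 65.3 and 64.2 CPM in KO livers, against 45.4, 42.6 and 56.7 CPM in NC livers. Of all genes tested 9.14% were lower and 7.25% higher in KO livers without overlap.

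Of 8 tested insulin-induced genes all 8 lay above 0, with a median of 0.85, and 5 were higher at an unadjusted p under 0.05, against 3.75% of all genes. All 8 also lay above 0 in each of the other settings, library totals only included, with medians from 0.50 to 1.09. The count at an unadjusted p under 0.05 moved from 0 without KO replicate 3 to 6 without KO replicate 1, and was 1 without KO replicate 2, 2 without NC replicate 2 and 1 without NC replicate 3. Thrsp, a lipogenic factor, had 49.7, 98.2 and 127 CPM in KO livers, against 23.0, 0.571 and 9.61 CPM in NC livers. The groups did not overlap, and the NC libraries differed widely among themselves. The estimated log2 fold change was 3.06 (SE 1.04), with an adjusted p of 0.405 in edgeR. Fasn, fatty acid synthase, had 94.9, 402 and 313 CPM in KO livers, against 124, 80.0 and 135 CPM in NC livers, so that KO replicate 1 lay inside the NC range. Elovl6, a fatty acid elongase, and Srebf1, the lipogenic transcription factor, had log2 fold changes of 0.92 and 0.63, with overlapping groups. DESeq2 called none of these 8. Insulin, glucose and feeding state are not part of the labels, and their part in these values was not tested.

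Stress pathways that are known to act on Igfbp1 in cultured cells gave mixed values. Of 15 targets of ATF4 and the integrated stress response 10 lay below 0, with a median of -0.18, and of 12 hypoxia target genes 9 lay above 0, with a median of 0.20. The ATF4 median was -0.04, -0.46 and -0.02 without KO replicates 1, 2 and 3, and -0.01 without NC replicate 2. With library totals only the hypoxia median was -0.04, or 0.17 relative to all genes. Ddit4, an inhibitor of mTORC1, had 4.84, 6.60 and 5.28 CPM in KO livers, against 17.0, 12.2 and 18.1 CPM in NC livers. The estimated log2 fold change was -1.50 (SE 0.21); the adjusted p was 0.357 in edgeR and 2.16e-05 in DESeq2. The vasodilator peptide Adm had a log2 fold change of -1.22, with adjusted p of 0.357 in edgeR and 0.0244 in DESeq2. Shmt2, a serine-metabolising enzyme, had one of 0.55. At an unadjusted p under 0.05, 1 ATF4 target was lower (Ddit4) and 1 higher (Shmt2) of 15. Both counts are near the 7.00% lower and 3.75% higher of all genes. The lower count of ATF4 targets was 2 without KO replicate 1 or KO replicate 2, and 3 without NC replicate 3. Their higher count was 0 without KO replicate 3 or NC replicate 2. Of the 12 hypoxia genes 2 were lower at that level, Adm and Ndrg1, a stress-induced gene with a log2 fold change of -0.43. That count was 1 when KO replicate 2, KO replicate 3, NC replicate 2 or NC replicate 3 was left out.

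**Figure D4:**
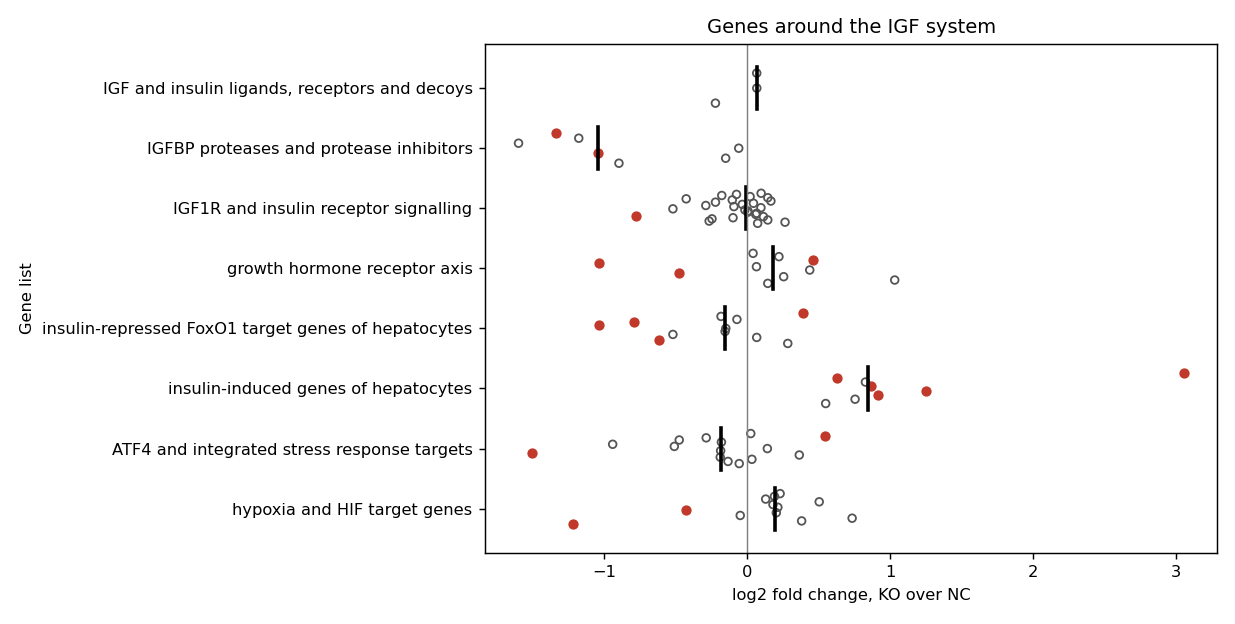
Log2 fold change, KO over NC, of each tested gene of the 8 lists. Filled red points have an unadjusted p under 0.05, open points do not, and black lines are list medians, from -1.04 for proteases and their inhibitors to 0.85 for insulin-induced genes.

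**Figure D5:**
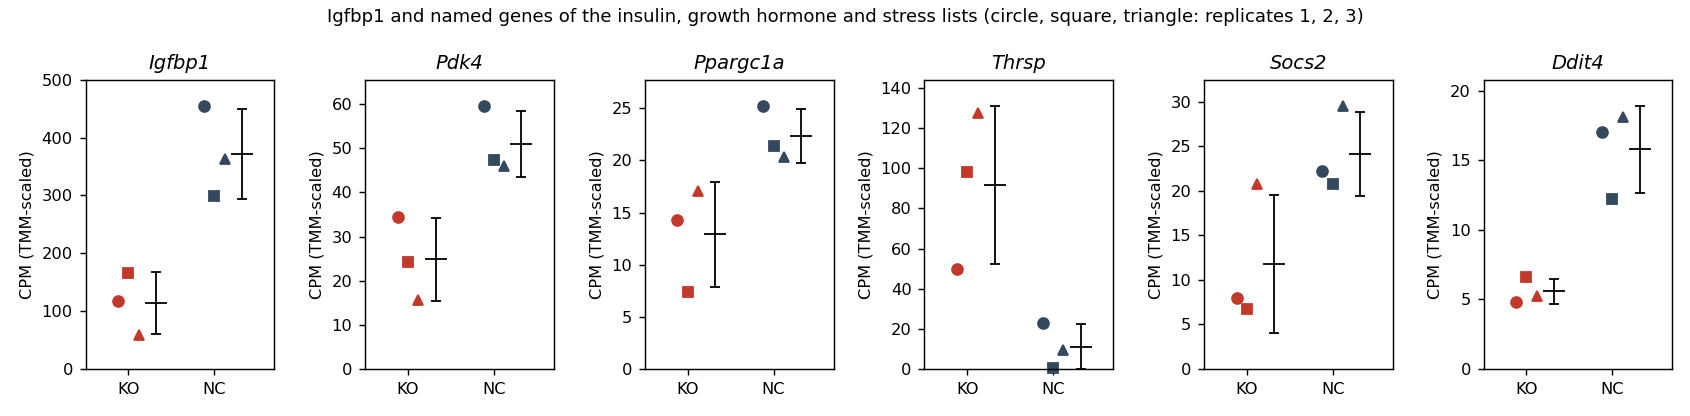
Igfbp1 and 5 genes named from the lists, in TMM-scaled CPM by library, KO left and NC right, with mean and SD. The KO libraries lie below the NC libraries for Igfbp1, Pdk4, Ppargc1a, Socs2 and Ddit4 and above them for Thrsp, where NC replicate 2 is at 0.571 CPM.

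The genes whose levels ran most like Igfbp1 over the 6 libraries, by Pearson's r of log2 CPM among 12523 genes with a mean of at least 1 CPM, were Syne1, a nuclear envelope spectrin repeat protein (r = 0.998), Bptf, a chromatin remodelling subunit (0.998), Lig4, a DNA ligase (0.996), Jmy (0.994) and Man1a2, a Golgi mannosidase (0.990). Their differences were smaller than that of Igfbp1, with log2 fold changes of -0.68, -0.36, -0.41, -0.23 and -0.31. For Igfals they were Hgfac, the secreted activator of hepatocyte growth factor (r = 0.996), Oxnad1 (0.996), Ebp, a sterol isomerase (0.994), Tmem86b (0.994) and Hsbp1 (0.994). Log2 fold changes of these ran from 0.18 for Hsbp1 to 0.63 for Hgfac. With 6 libraries and so many genes these values only describe likeness.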

How the data were processed

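Livers of 3 KO and 3 NC mice were measured by polyA RNA sequencing from strand-specific libraries, per the labels. Estimated counts and TPM per gene were made by the authors and deposited in 1 table of 21956 genes. The submitters' processing notes list RSEM 1.3.3, HISAT2 2.2.1, DESeq2 1.38.3 and fastp 0.23.2, on GRCm38, without roles or order; no annotation release is given there. The deposited estimated counts are not normalized; 6.93% were not whole, and all were rounded. The deposited TPM are scaled to length and total, and were used for levels. TPM and counts can disagree where the assigned length differs between libraries.

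KO was compared with NC in edgeR 4.0.16 (filterByExpr, TMM factors, robust quasi-likelihood fit and test; Benjamini-Hochberg over 13197 genes at 0.05), checked on simulated data. The standard error is the log2 fold change over the root of its F. Log2 CPM used a prior count of 2. Alternatives were DESeq2 1.42.0, limma 3.58.1 (voom, log2(TPM + 1), log2(TPM + 0.1)), other scalings, no filter or 1 CPM in 3 libraries, a replicate block and each library left out. R 4.3.3 and Python 3.11.15 were used.

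Named were every member, Sting1, up to 3 genes per list by smallest p plus any others under 0.05 where 5 or fewer were counted, and the 5 genes most alike to the top member in each direction. G6pc and Fasn fall under the second clause, which was added after their values were seen; 1 further gene under it is not reported here. Members and lists were chosen with earlier results of these data known. Gene positions are from GENCODE M21 (GRCm38), promoters from RefSeq (GRCm38.p6), matched by symbol for 10 of 10 members. No pair of libraries agreed within sampling noise. Replicates are described as biological. The p-values set the group difference against the spread between these mice, which edgeR estimates with the help of all genes.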

Additional observations from a re-analysis of the deposited data

How the results depend on the processing

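Igfbp1 stayed lower in KO livers in all 16 other settings, with log2 fold changes from -2.08 to -1.39 and adjusted p from 0.000264 in DESeq2 to 0.815 without KO replicate 3; it passed in DESeq2 only. Igfbp4, Igfbp5, Igfbp7, Igfals and Igf1r kept their direction in all 16, and none passed in any. Igf1 turned to -0.072 with library totals only. Igfbp2 turned to -0.0059 on log2(TPM + 1), -0.0060 on log2(TPM + 0.1) and -0.023 without KO replicate 1, and ran up to 0.57 without NC replicate 1. Igfbp3, near 0 throughout, turned to -0.015 with upper-quartile scaling, -0.21 with library totals only, -0.00028 with the CPM filter, -0.00078 in limma-voom, -0.23 on log2(TPM + 1), -0.24 on log2(TPM + 0.1), -2.3e-05 with the replicate block, -0.11 without KO replicate 2, -0.02 without NC replicate 2 and -0.03 without NC replicate 3; it ran up to 0.087 without NC replicate 1. Between 4 and 6 members lay below 0. The median of all genes was -0.21 with library totals only, -0.20 on log2(TPM + 1) and -0.23 on log2(TPM + 0.1).

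Genes called over all genes were 0 in edgeR, where 1419 had an unadjusted p under 0.05. There were 127 in DESeq2, 5 with the replicate block, and 0 to 2 when 1 library was left out, with 2 each without NC replicate 2 and without NC replicate 3. Same-numbered KO and NC libraries deviated from their group means with r of 0.115, -0.0068 and 0.133, and KO replicate 1 correlated best with NC replicate 2. With 3 libraries per group such values cannot decide whether the numbers pair the mice. In edgeR 1792 genes had an unadjusted p under 0.05 with the block. With the block the log2 fold change of Igfbp1 was -1.82 and its adjusted p 0.216. The settings for the lists were chosen after seeing the data. The causes of these differences were not tested. Depth limits Igfbp6, which no filtered fit tests.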
